A study of Mus musculus with 12 samples.

Results

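The MYC, MAX and MXD network is a family of dimerizing transcription factors, here taken as 10 listed genes: Myc, Mycn, Max, Mxd1, Mxd3, Mxd4, Mxi1, Mnt, Mga and Mlx. Members were found by gene symbol in a count table of 17210 genes. Of the 10, 9 had a row and Mycn had none. All 9 passed the filter on low counts, as did 11177 genes in all. The libraries came from G1E-ER4, a mouse erythroid cell line without its own GATA1 that carries a fusion of murine GATA1 with the hormone-binding part of human estrogen receptor, so that β-estradiol (EST) switches GATA1 activity on. Every group therefore carried the fusion and was transduced with a retrovirus for 24 h. The Vector group received empty vector and no EST, Vector+EST received empty vector and EST for 6 h, SREBP2 received the active fragment of SREBP2 (residues 1 to 468, FLAG-tagged in the study's methods) without EST, and SREBP2+EST received both. Each group had 3 libraries, 12 in all, of poly(A) RNA read as single 50-base reads. For EST the sample protocol gives 500 nM, and the text of the series 200 nM. Nothing in the labels says that libraries of a group came from separate cultures, so p-values measure only the spread between these libraries.

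MAX is the common partner of this network. MYC-MAX dimers bind the E-box CACGTG and activate genes of growth, metabolism and ribosome production, whereas dimers of MAX with an MXD protein (Mxd1, Mxd3, Mxd4 or Mxi1) or with MNT bind the same element and recruit SIN3 corepressors and histone deacetylases. MGA is a large MAX partner found in a Polycomb complex, and MLX is a MAX-like protein that pairs with the glucose-sensing factors MondoA and ChREBP as well as with some MXD proteins. During terminal erythroid maturation MYC is known to fall as cells leave the cell cycle, and Mxd1 is known as a gene of differentiating cells.

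The E-box through which these proteins act also lies in the promoters of some of the genes that encode them, and those stretches are shown because they carry the binding element itself. RefSeq promoters of 300 bases (250 before to 50 after the start, GRCm38.p6) matched 9 of the 10 members, Mycn among them, with 11 promoters in all. The member without a match was Myc, whose promoter was therefore not searched. The E-box, which reads the same on both strands, was found in 4 members, or 44.4% of the 9, beside 7.15% of 32851 promoters of that length and 10.3% of 13609 genes of the count table. Each stretch below is 30 bases, 5′ to 3′ on the strand of the gene, with the E-box in capitals.
Mxd4 (chr5:34187912-34187941, minus strand, E-box 219 bases before the start): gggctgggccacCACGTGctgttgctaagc
Mnt (chr11:74830789-74830818, plus strand, 123 bases before the start): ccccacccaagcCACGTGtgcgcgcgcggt
Mlx (chr11:101087238-101087267, plus strand, 40 bases before the start): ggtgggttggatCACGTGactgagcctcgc
Max (chr12:76962234-76962263, minus strand, 3 bases before the start): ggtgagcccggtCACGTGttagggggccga
The start used for Max was not found in a GENCODE transcript, so its distance is less certain. A GATA motif (the letters GATA after an A or a T and before an A or a G, on either strand) was found in 1 of the 9 members, Mlx, where it lay 85 bases before the start, beside 29.8% of all promoters and 25.1% of the count table's genes. The sterol element TCACNCCAC, on either strand, was in 0 of the 9 and in 1.24% of all promoters and 1.4% of the count table's genes. These matches are a description of letters in a short window. The 4 genes with the E-box did not share a pattern of expression in the values that follow: with EST in Vector cells, Mxd4 rose, Mnt and Max fell and Mlx did not pass the test.

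Totals were nearly level, from 18700959 to 19152281 estimated counts a library. Srebf2, the mouse gene for SREBP2, was measured at 355 to 370 CPM (counts scaled to a common library size) in Vector, 432 to 456 in Vector+EST, 797 to 837 in SREBP2 and 801 to 814 in SREBP2+EST, higher in every library labelled SREBP2 than in every library with empty vector. The species of the introduced fragment is not given in the labels, and the study's supplement speaks of human SREBP2 RNA in virus-treated cells of this line, so reads of the introduced sequence and of the cells' own gene cannot be told apart here. The 3 Vector libraries stood apart from the other 9 on the first principal component, which held 65.3% of the variance. In both SREBP2 groups, library 1 lay with the libraries of the other group: SREBP2 1 was at 29.7 on that component beside 31.0 and 31.2 for SREBP2+EST 2 and 5, and SREBP2+EST 1 was at 26.1 beside 22.5 and 22.4 for SREBP2 3 and 5. On the list of 8 fibroblast markers, by contrast, 6 (Col1a1, Col1a2, Col3a1, Fn1, Mmp2 and Igfbp7) were lower in all SREBP2 libraries than in all SREBP2+EST libraries, as the labels have it. Col1a1 had 1 count in each SREBP2 library against 120, 256 and 127 counts in SREBP2+EST 1, 2 and 5, but it also varied within Vector+EST (0, 0 and 252 counts in libraries 1, 3 and 5). Of the other 2 markers, Dcn had at most 3 counts, and Pdgfrb went with the components: it was at 4.61 CPM in SREBP2 1 beside 5.33 and 5.01 in SREBP2+EST 2 and 5, and at 9.15 in SREBP2+EST 1 beside 8.45 and 8.30 in SREBP2 3 and 5. Several results of the members are also given without these 2 libraries, whereas those of other gene lists rest on all libraries. As the 2 libraries were picked from their place in these same data, leaving them out can by itself make differences larger and p-values smaller, so values without them are a description. The labels call the cells embryonic stem cells, but of 8 pluripotency markers 3 (Pou5f1, Zfp42 and Utf1) had no row, Nanog, Sox2, Dppa5a and Esrrb reached at most 0.596 CPM, and Dppa4 was at 90.9 to 101.5 CPM, while 11 erythroid markers summed to 5470 to 8592 CPM.

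Vector cells also differed in marker sums. Among the members, Myc, Mxd1, Mxd3, Mxd4, Mnt and Mga had every Vector library apart from all other libraries, whereas Max, Mxi1 and Mlx did not. The erythroid sum, to which Hba-a1 and Hbb-b1 contributed most, was 8193 to 8592 CPM in Vector and 5470 to 6669 in the other groups. Its 11 genes did not all move that way: 2, Alas2 and Klf1, were higher and 8 lower with EST, and 2 and 7 with SREBP2 alone, with Alas2 at 51.9 to 52.3 CPM in Vector and 129.7 to 185.9 elsewhere. Summed levels of 6 neural markers were 9.72 to 11.5 CPM in Vector against 2.02 to 4.55 elsewhere, with Stmn2 and Gap43 at no more than 2 counts in any library. Those of 6 myeloid and mast cell markers were 15.7 to 16.7 against 4.79 to 7.37 CPM, with Mpo and Elane at no more than 2 counts. A megakaryocyte list of 6 genes summed to 55.1 to 63.3 CPM in Vector, 44.1 to 52.8 in Vector+EST, and 88.1 to 112.6 in the SREBP2 groups. Fibroblast transcripts split in another way, with sums of 4.74 and 4.76 CPM in Vector+EST 1 and 3, 36.6 in Vector+EST 5, 23.7 to 40.5 in SREBP2+EST, 8.63 to 13.8 in SREBP2 and 19.23 to 20.07 in Vector. That sum mixes genes with different patterns: Pdgfrb was at 4.61 to 9.15 CPM in the SREBP2 groups and at most 0.159 in the others, whereas Col1a2 was at 18.9 to 19.9 CPM in Vector and 3.87 to 7.97 elsewhere. Their part in the results was not tested.

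With EST, Vector cells had less Myc and Mnt RNA and more Mxd1 RNA. Relative to Vector, 3 members were higher in Vector+EST (Mxd1, Mxd4 and Mxi1), 5 were lower (Myc, Mnt, Mga, Mxd3 and Max) and 1, Mlx, did not pass the test (edgeR adjusted p under 0.05). Over all genes tested, 35.2% were higher and 35.5% lower in this comparison, so the count of higher members was close to the background and that of lower members somewhat above it. Myc and Mnt fell more than 3-fold, which 3.04% and 3.12% of all genes exceeded in that direction, and 98.7% of genes had a lower log2 fold change than Mxd1. In bulk RNA, fewer cells with a transcript and less of it per cell cannot be told apart.

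Myc (chr15:61985341-61990361, plus strand), the activating partner, was at 415, 391 and 395 CPM in Vector libraries 1, 4 and 5 and at 128, 122 and 128 CPM in Vector+EST libraries 1, 3 and 5. Every Vector library lay far above every Vector+EST library. Myc was 3.18-fold lower with EST, or -1.67 ± 0.14 on the log2 scale (SE, edgeR adjusted p = 3.08e-08), and this value lay between -1.73 and -1.64 under 20 alternatives. SREBP2 without EST gave 107, 166 and 164 CPM in libraries 1, 3 and 5, again below all Vector libraries, and -1.46 ± 0.14 on the log2 scale (edgeR adjusted p = 1.31e-07). Both comparisons used the same Vector libraries, so they are not independent of each other.

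Mxd1 (chr6:86647044-86669234, minus strand), a repressor that competes with MYC for MAX, moved the other way. It was at 17.2, 16.2 and 16.1 CPM in Vector, 80.0, 79.3 and 80.9 in Vector+EST, 89.3, 85.0 and 84.3 in SREBP2, and 87.8, 94.6 and 90.4 CPM in SREBP2+EST. Vector libraries were low and the other 9 high, with no overlap. Mxd1 rose 4.85-fold with EST (log2 2.28 ± 0.05, edgeR adjusted p = 3.66e-15) and 5.22-fold with SREBP2 alone (log2 2.39 ± 0.05, edgeR adjusted p = 1.34e-15). These were the largest changes among the 9 members in both comparisons.

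Mnt (chr11:74830806-74845725, plus strand), a broadly expressed repressor thought of as the constitutive counterweight of MYC, separated 3 levels. It was at 74.1, 67.3 and 68.8 CPM in Vector, 22.2, 22.4 and 22.4 in Vector+EST, 41.8, 47.1 and 43.9 in SREBP2, and 42.7, 41.6 and 42.1 CPM in SREBP2+EST. Vector was highest, Vector+EST lowest, and both SREBP2 groups lay between them without touching either. The log2 fold change was -1.65 ± 0.06 with EST (edgeR adjusted p = 3.77e-13) and -0.66 ± 0.05 with SREBP2 alone (edgeR adjusted p = 8.09e-09). Tested directly, Mnt was 1.98-fold higher with SREBP2 alone than with EST alone (log2 0.99 ± 0.06, edgeR adjusted p = 1.45e-09).

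**Figure D1:**
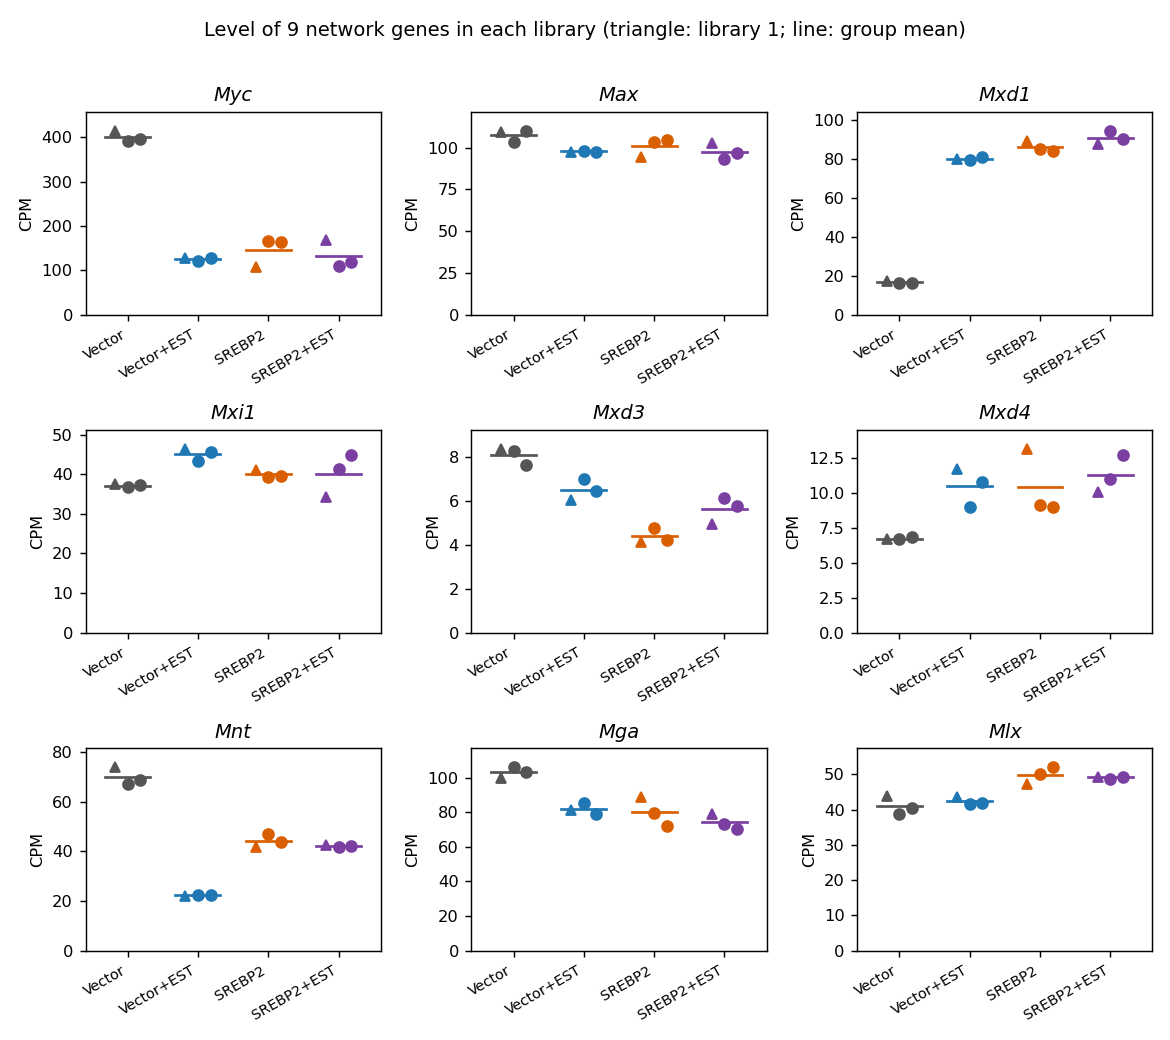
CPM (vertical axis, from 0) of each of the 9 measured members in the 12 libraries, by group, with triangles for library 1, circles for the other libraries and lines for group means. Myc is above 390 CPM in Vector alone, Mxd1 is under 18 CPM in Vector alone, Mnt has 3 separate levels, and in both SREBP2 groups the Myc value of library 1 sits apart from the other libraries of its group.

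The other MXD repressors changed less than Mxd1. Mxd4 (chr5:34176580-34187710, minus strand) was at 6.67 to 6.81 CPM in Vector, 8.94 to 11.7 in Vector+EST, 9.001 to 13.1 in SREBP2 and 10.02 to 12.7 in SREBP2+EST. Only the Vector libraries stood apart, below the rest, and the rise was 1.56-fold with EST (log2 0.64 ± 0.15, edgeR adjusted p = 0.00109) and 1.55-fold with SREBP2 alone (log2 0.63 ± 0.15, edgeR adjusted p = 0.00119). SREBP2 library 1 held the highest value of its group, 13.1 beside 9.10 and 9.001 CPM. Without both libraries 1, the SREBP2 effect on Mxd4 was 0.39 on the log2 scale (edgeR adjusted p = 0.00711).

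Mxi1 (chr19:53310128-53373293, plus strand) was at 36.7 to 37.4 CPM in Vector and 43.3 to 46.4 CPM in Vector+EST, a rise of 1.22-fold (log2 0.28 ± 0.07, edgeR adjusted p = 0.00276). With SREBP2 alone its 39.2 to 41.1 CPM lay just above Vector, yet the difference of 0.11 ± 0.07 on the log2 scale did not pass (edgeR adjusted p = 0.216). SREBP2+EST was the most scattered group for Mxi1, with 34.2, 41.3 and 44.8 CPM in libraries 1, 2 and 5. Its difference from Vector, 0.11 on the log2 scale, did not pass (edgeR adjusted p = 0.194), but without SREBP2+EST library 1 it was 0.21 with an edgeR adjusted p of 0.00291.

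Mxd3 (chr13:55325170-55329900, minus strand), an MXD gene known from proliferating cells, was the member of its family that fell. It was at 8.36, 8.25 and 7.62 CPM in Vector, 6.03, 7.003 and 6.42 in Vector+EST, 4.13, 4.77 and 4.23 in SREBP2, and 4.93, 6.14 and 5.76 CPM in SREBP2+EST. The SREBP2 libraries were below all others. The difference was -0.32 ± 0.10 on the log2 scale with EST (edgeR adjusted p = 0.0128, but 0.0583 without Vector+EST library 1), and -0.88 ± 0.11 with SREBP2 alone (edgeR adjusted p = 2.47e-06). SREBP2 alone was also below EST alone, by -0.57 ± 0.12 (edgeR adjusted p = 0.00185). Mxd3 rests on 78.2 to 163 estimated counts a library, fractional in all 12, and overlaps Prelid1 on the opposite strand. As the library kit is not stated to keep strand, reads of the pair may not be separable. Other members overlap annotated genes too. Mxd1 overlaps Gm44292 and Max overlaps Gm47218 on the same strand. Mxd4 overlaps Gm42846, and Mxi1 overlaps AC133451.2 and Gm10197, on the opposite strand.

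Max (chr12:76937269-76962323, minus strand), the common partner, was nearly level. It was at 103 to 110.2 CPM in Vector, 97.3 to 98.3 in Vector+EST, 94.4 to 104 in SREBP2 and 93.3 to 103 in SREBP2+EST. Vector+EST lay just below Vector, by -0.14 ± 0.05 on the log2 scale (edgeR adjusted p = 0.0162, but 0.0557 without Vector library 1). SREBP2 alone overlapped Vector, with -0.10 ± 0.05 (edgeR adjusted p = 0.0855), and passed the threshold under 7 of 20 alternatives. The 95% interval of that difference, -0.20 to 0.01, holds no change as large as those of Myc, Mxd1 or Mnt.

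Mga (chr2:119872503-119970129, plus strand) was at 99.6 to 106 CPM in Vector, 79.3 to 85.6 in Vector+EST, 72.3 to 88.7 in SREBP2 and 70.6 to 78.8 in SREBP2+EST. Vector was again apart, above the rest, and Mga fell with EST (log2 -0.33 ± 0.06, edgeR adjusted p = 0.000202) and with SREBP2 alone (log2 -0.36 ± 0.06, edgeR adjusted p = 8.25e-05). Mlx (chr11:101086707-101092207, plus strand) instead differed by the SREBP2 fragment. It was at 38.8 to 44.0 CPM in Vector and 41.5 to 43.4 in Vector+EST, which overlapped, and at 47.3 to 52.1 in SREBP2 and 48.7 to 49.3 in SREBP2+EST, above both. Mlx rose 1.21-fold with SREBP2 alone (log2 0.28 ± 0.05, edgeR adjusted p = 0.000208), and the EST effect of 0.04 ± 0.05 in Vector cells did not pass (edgeR adjusted p = 0.491). Mlx overlaps Psmc3ip on the opposite strand.

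With SREBP2 alone, counted over the members, 3 were higher than in Vector (Mxd1, Mxd4 and Mlx), 4 lower (Myc, Mxd3, Mnt and Mga) and 2 did not pass (Max and Mxi1), against 37.7% of all genes higher and 33.8% lower, shares close to those of the members. SREBP2+EST against Vector gave 3 higher (Mxd1, Mxd4 and Mlx) and 5 lower (Myc, Mnt, Mxd3, Mga and Max), with 38.6% and 34.2% of all genes. With header numbers (the numbers in the library names) as a replicate block, Max lost its call there (edgeR adjusted p = 0.0773). The median log2 fold change of the members was -0.14 with EST, -0.10 with SREBP2 alone and -0.14 with both, beside 0.01, 0.03 and 0.04 over all genes tested. All 3 comparisons share the Vector libraries that stand apart, so their likeness is not independent evidence.

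The effect of SREBP2 was also tested among cells that received EST. Between SREBP2+EST and Vector+EST, 3 members were higher (Mnt, Mlx and Mxd1) and 0 lower, beside 14.0% and 7.94% of all genes. Mnt was 1.89-fold higher (log2 0.92 ± 0.06, edgeR adjusted p = 4.12e-09), and 96.2% of genes had a lower log2 fold change. Mlx was 1.16-fold higher (log2 0.22 ± 0.05, edgeR adjusted p = 0.00885) and Mxd1 1.14-fold higher (log2 0.18 ± 0.04, edgeR adjusted p = 0.00567), and in these 3 genes the libraries did not overlap. With header numbers as a replicate block Mnt alone passed, and the calls of Mlx (edgeR adjusted p = 0.0876) and Mxd1 (edgeR adjusted p = 0.15) were lost. No other library shares the number of SREBP2+EST library 2, so that fit in effect leaves it out and has less power. Myc differed by 0.07 ± 0.15 on the log2 scale (edgeR adjusted p = 0.793), an interval of -0.24 to 0.38 that allows a change of either sign. Without both libraries 1, 5 members passed, 3 higher and 2 lower, with Myc at -0.15 (edgeR adjusted p = 0.0116) and Mga at -0.19 (edgeR adjusted p = 0.00585), and calls over all genes rose as well, to 30.7% of 11292.

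**Figure D2:**
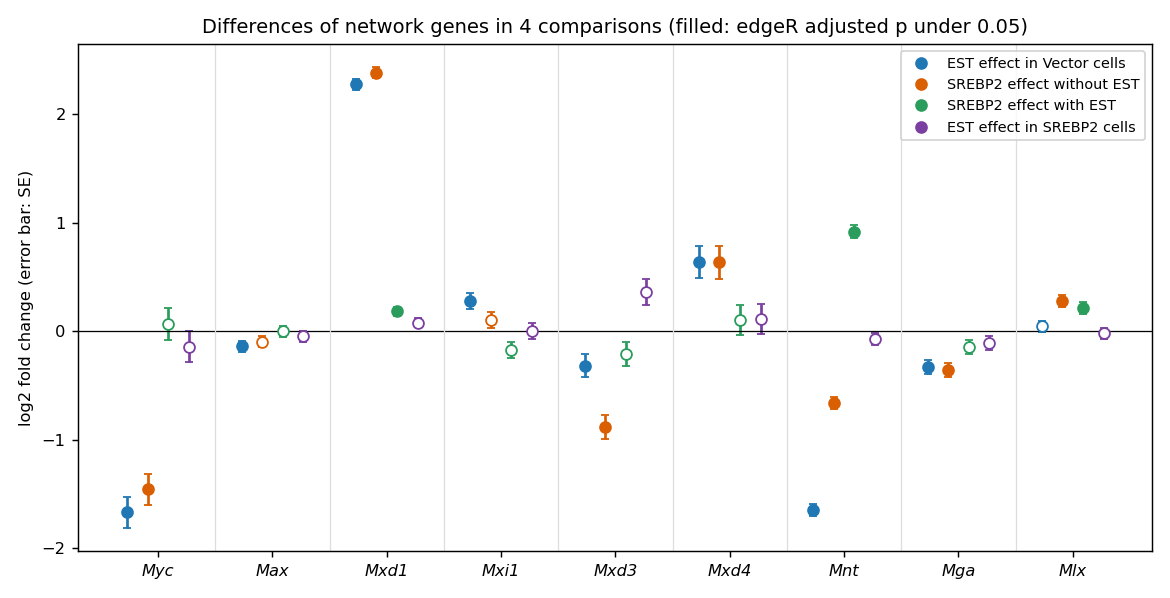
Log2 fold change (vertical axis) of each member in 4 comparisons, with bars for the standard error, filled where edgeR's adjusted p is under 0.05. The effects of EST and of SREBP2 on Vector cells lie close together for Myc, Mxd1, Mxd4 and Mga and apart for Mnt and Mxd3, and no EST effect in SREBP2 cells is filled.

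SREBP2 alone and EST alone were then compared directly. Mnt and Mlx were higher with SREBP2 alone and Mxd3 was lower, 2 and 1 of the 9, beside 14.4% and 8.96% of all genes. Mlx differed by 0.24 ± 0.05 on the log2 scale (edgeR adjusted p = 0.00441). Myc was 0.21 ± 0.15 higher with SREBP2 alone, which did not pass (edgeR adjusted p = 0.335), but without SREBP2 library 1 it was 0.39 higher (edgeR adjusted p = 0.0125). Without both libraries 1, 5 of the members passed, the third higher member being Myc and the second lower one Mxi1 (log2 -0.20, edgeR adjusted p = 0.00503), and in that fit 34.4% of all genes passed.

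Adding EST to SREBP2 cells changed no member by edgeR's test: 0 were higher and 0 lower, as for 0% and 0% of all genes, while 506 genes (4.53%) and 1 member, Mxd3, had an unadjusted p under 0.05. DESeq2 called 12 genes and 0 members. Myc was at 107, 166 and 164 CPM in SREBP2 libraries 1, 3 and 5 and at 168, 110.2 and 118 CPM in SREBP2+EST libraries 1, 2 and 5, so that library 1 of each group had the level of the other group's remaining libraries. The log2 fold change was -0.14 ± 0.15 (edgeR adjusted p = 0.923) with all libraries. Without both libraries 1 it was -0.53 ± 0.04 (edgeR adjusted p = 2.78e-07), and 1567 genes and 3 members passed, with Mxd4 at 0.39 (edgeR adjusted p = 0.0375) and Max at -0.13 (edgeR adjusted p = 0.0498). The background in that fit was 13.9% of 11292 genes. These 2 libraries were set aside because of where they lie over all genes, which also makes such p-values too small to be read as a test.

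Whether EST acted differently in SREBP2 cells was tested as an interaction, the EST effect in SREBP2 cells minus that in Vector cells. It was above 0 for 4 members (Myc, Mnt, Mxd3 and Mga) and below 0 for 3 (Mxd1, Mxd4 and Mxi1), beside 29.8% and 29.2% of all genes. The difference was 1.53 ± 0.20 for Myc (edgeR adjusted p = 8.99e-06), 1.58 ± 0.08 for Mnt (edgeR adjusted p = 1.02e-10) and -2.20 ± 0.07 for Mxd1 (edgeR adjusted p = 4.29e-13). Mxd3 had 0.68 ± 0.16 (edgeR adjusted p = 0.0016). The remaining 3 were near the threshold: the count of 7 members fell to 4 without Vector library 4, Vector+EST library 1, Vector+EST library 5 or SREBP2+EST library 1, each of which cost Mxd4, Mxi1 and Mga their call. Without both libraries 1, the value for Myc was 1.18 (edgeR adjusted p = 5.42e-13) and that for Mxd1 was -2.11 (edgeR adjusted p = 5.07e-16). In that fit Mxd4 (-0.21, edgeR adjusted p = 0.271) and Mxi1 (-0.11, edgeR adjusted p = 0.199) lost their call. There 5 members passed, 4 above 0 and 1 below, beside 57.1% of 11292 genes.

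Levels of different genes were compared per kilobase, dividing CPM by the median length of the gene's protein-coding transcripts. On that scale Myc was the highest member in every group, at 223 ± 7.11 CPM per kilobase (SD, n = 3) in Vector, 70.2 ± 2.09 in Vector+EST, 81.2 ± 18.5 in SREBP2 and 73.6 ± 17.5 in SREBP2+EST. Max was second, between 50.6 and 55.9. Mxd1 passed from seventh of 9 in Vector, 6.49 ± 0.249, to the third place in the other groups, 31.5 to 35.8, whereas Mnt left the third place, 26.9 ± 1.36, for the sixth, with 8.57 ± 0.0537 in Vector+EST. These places depend on the length used: with the longest transcript Mxd1 went from the eighth to the fourth, and Mnt from the fourth to the eighth in Vector+EST and the fifth in both SREBP2 groups, while Myc and Max stayed first and second.

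Summed over the MAX partners (Myc, the 4 MXD genes, Mnt and Mga), the transcripts came to 298 ± 8.80 CPM per kilobase in Vector, or 5.33 per unit of Max, and to 156 ± 3.33, 172 ± 16.4 and 167 ± 12.8 in Vector+EST, SREBP2 and SREBP2+EST, or 3.07 to 3.29 per unit of Max. Myc made up 75.1%, 74.8% and 74.9% of this sum in Vector, 45.3%, 44.6% and 45.3% in Vector+EST, 39.0%, 50.4% and 50.8% in SREBP2, and 51.7%, 39.2% and 40.5% in SREBP2+EST. The MXD genes together held 13.3 to 13.7% in Vector and 36.0 to 47.1% in the other groups. The ratio of Myc to Mxd1 was 34.4 ± 0.312 in Vector, 2.23 ± 0.0508 in Vector+EST, 2.41 ± 0.611 in SREBP2 and 2.07 ± 0.564 in SREBP2+EST. With the longest transcript in place of the median, Myc held 80.5% in Vector and 53.0 to 56.1% elsewhere, and its ratio to Mxd1 was 48.4 and 2.91 to 3.39. These shares are of RNA and are a description, with no test.

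**Figure D3:**
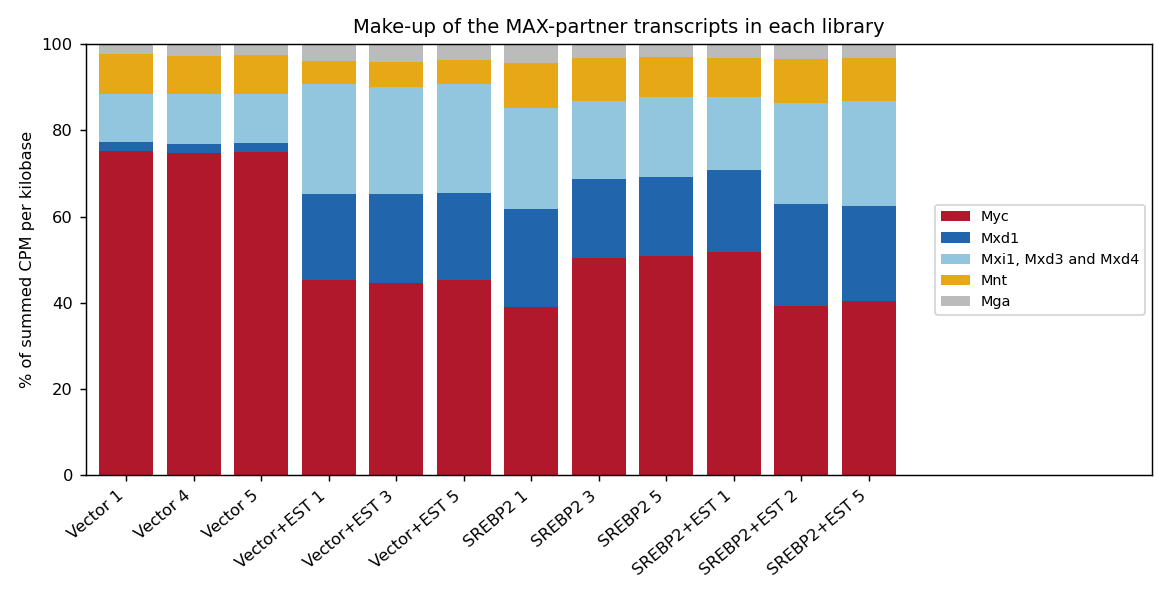
Share in percent (vertical axis) of each MAX partner in the summed CPM per kilobase of Myc, Mxd1, Mxi1, Mxd3, Mxd4, Mnt and Mga, one bar a library. Myc takes close to 75% in the 3 Vector libraries and 39.0 to 51.7% in the other 9, and the share of Mnt is at its lowest, 5.39 to 5.66%, in Vector+EST.

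Genes whose pattern over the 12 libraries was most like a member were sought among 8494 genes, by the root mean square difference of centred log2 CPM. Nearest to Myc were Ces2g (0.0737), Grwd1 (0.0764), a ribosome assembly gene, and Ccnd2 (0.0782), which encodes cyclin D2 and is itself on the list of MYC-activated targets. Ccnd2 had 555 CPM in Vector, 166 in Vector+EST, 192 in SREBP2 and 183 in SREBP2+EST. Nearest to Mxd1 were Psen2 (0.0525), Tfe3 (0.0679), a transcription factor of lysosomal genes, and Cdc42ep4 (0.0691). Nearest to Mnt were Ifrd1 (0.0872), Igsf8 (0.104) and Plp2 (0.137), which shared its 3 levels: Ifrd1 was at 71.7 CPM in Vector, 26.3 in Vector+EST, 48.3 in SREBP2 and 45.5 in SREBP2+EST. Nearest to Mxd4 were Armcx2 (0.0967), Edem1 (0.0974) and Pik3ca (0.106).

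Among 39 genes known to be activated by MYC, 38 were tested. With EST in Vector cells 6 were higher, 29 lower and 3 not called, with a median log2 fold change of -0.54, and with SREBP2 alone 5 were higher, 29 lower and 4 not called, with a median of -0.63. Over all genes, 35.2% were higher and 35.5% lower with EST and 37.7% and 33.8% with SREBP2 alone, with medians of 0.01 and 0.03. Ccnd2 fell most with EST (log2 -1.74 ± 0.10, edgeR adjusted p = 2.68e-10) and Ubtf, which encodes a factor of RNA polymerase I, fell most with SREBP2 alone (log2 -1.63 ± 0.07, edgeR adjusted p = 3.74e-12). Slc7a5, which encodes an amino acid transporter, rose in both, by 1.28 ± 0.05 with EST (edgeR adjusted p = 7.3e-13) and by 1.46 ± 0.05 with SREBP2 alone (edgeR adjusted p = 1.15e-13). Between SREBP2+EST and Vector+EST, 3 were higher, 13 lower and 22 not called, with a median of -0.13, beside 14.0% and 7.94% of all genes. This count includes SREBP2+EST library 1 and was not repeated without it. In the interaction 28 were above 0 and 5 below, with a median of 0.46, beside 29.8% and 29.2%. The E-box lay in 9 of the 32 promoters matched to this list, 28.1%, beside 10.3% of the count table's genes and 7.15% of all promoters.

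**Figure D4:**
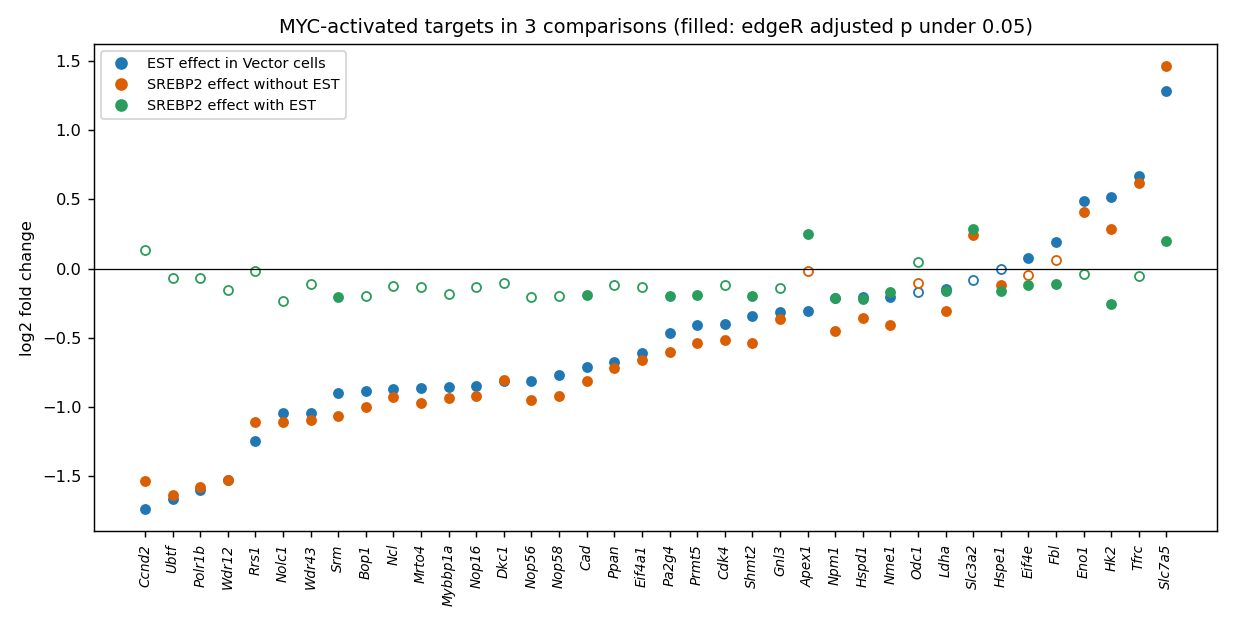
Log2 fold change (vertical axis) of the 38 tested MYC-activated targets, ordered by the EST effect in Vector cells, in 3 comparisons, filled where edgeR's adjusted p is under 0.05. The EST and SREBP2 effects on Vector cells run together from -1.74 at Ccnd2 to 1.46 at Slc7a5, while the SREBP2 effect with EST runs only from -0.26 at Hk2 to 0.28 at Slc3a2.

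The list of MYC-repressed targets was small and mixed. Of 6 genes 5 were tested, with 2 higher and 2 lower with EST, beside 35.2% and 35.5% of all genes, and 3 higher and 2 lower with SREBP2 alone, beside 37.7% and 33.8%, too few to set against those shares. Cdkn1b, the cyclin-dependent kinase inhibitor p27, was at 24.3 to 30.3 CPM in Vector, 114 to 120.4 in Vector+EST, 108 to 132 in SREBP2 and 107 to 128 in SREBP2+EST. Vector was low with no overlap, and the rise was 4.33-fold with EST (log2 2.11 ± 0.09, edgeR adjusted p = 5.32e-12) and 4.32-fold with SREBP2 alone (edgeR adjusted p = 4.31e-12). Cdkn1a, the inhibitor p21, went the other way and was well measured. It was at 228 to 240 CPM in Vector, 132 to 143 in Vector+EST, 137 to 179 in SREBP2 and 139 to 168 in SREBP2+EST. Cdkn2b, the inhibitor p15, also went down, on few reads: its 16 to 19 counts in Vector and 1 to 4 in the other 9 libraries allow the direction (edgeR adjusted p = 1.85e-05 with EST, 7.48e-05 with SREBP2 alone) but no useful fold. Ndrg2 had 1 to 4 counts in Vector and 10 to 15 in SREBP2 (edgeR adjusted p = 0.000469), and 3 to 6 in Vector+EST, which did not pass (edgeR adjusted p = 0.212).

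Genes that act on the members' proteins changed in both directions. Of 17 MYC cofactors, 7 were higher and 7 lower with EST, close to the 35.2% and 35.5% of all genes. With SREBP2 alone 4 were higher and 7 lower, beside 37.7% and 33.8%. Kat2a, the acetyltransferase GCN5, fell most in both (log2 -1.42 ± 0.10 with EST, edgeR adjusted p = 1.57e-09, and -1.39 ± 0.10 with SREBP2 alone, edgeR adjusted p = 1.78e-09). Crebbp, the acetyltransferase CBP, rose most (0.81 ± 0.08, edgeR adjusted p = 1.34e-07, and 0.72 ± 0.08, edgeR adjusted p = 6.11e-07). Of 14 genes of MYC protein turnover, 6 were higher and 5 lower with EST, and 6 and 6 with SREBP2 alone, near the same shares of all genes. Usp36, a nucleolar deubiquitinase known to stabilise MYC, fell by 1.24 ± 0.07 on the log2 scale with EST (edgeR adjusted p = 3.45e-10) and by 1.25 ± 0.07 with SREBP2 alone (edgeR adjusted p = 3.02e-10). Ppp2r5a, a regulatory subunit of protein phosphatase 2A, rose by 0.62 ± 0.04 (edgeR adjusted p = 1.54e-09) and 0.70 ± 0.04 (edgeR adjusted p = 3.04e-10).

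Of the corepressors that MXD and MNT proteins recruit, more were lower than higher in both comparisons, whereas all genes were divided about evenly (35.2% higher and 35.5% lower with EST, 37.7% and 33.8% with SREBP2 alone). Of 15 genes, 2 were higher and 10 lower with EST, with a median log2 fold change of -0.21, and 2 and 11 with SREBP2 alone, with a median of -0.18. Ing2, a subunit of the SIN3 complex, fell most with EST (-0.95 ± 0.08, edgeR adjusted p = 4.17e-08), Sap30, another subunit, fell most with SREBP2 alone (-1.21 ± 0.09, edgeR adjusted p = 3.06e-09), and Arid4b rose most in both (0.58 ± 0.07, edgeR adjusted p = 1.59e-06, and 0.53 ± 0.07, edgeR adjusted p = 4.28e-06). Among 9 genes of the Polycomb complex that holds MGA, 3 were higher and 5 lower in both comparisons, too few to set against those shares. Pcgf6, a subunit particular to that complex, fell most (-0.78 ± 0.07 with EST, edgeR adjusted p = 2.06e-08, and -0.83 ± 0.07 with SREBP2 alone, edgeR adjusted p = 9.51e-09), and Rnf2, a ubiquitin ligase of several Polycomb complexes, rose most (0.37 ± 0.04, edgeR adjusted p = 1.38e-06, and 0.29 ± 0.04, edgeR adjusted p = 2.17e-05).

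Of 4 genes around MLX, 2 were tested. Mlxip, which encodes the partner MondoA, was at 61.3 to 63.7 CPM in Vector, 110.1 to 113 in Vector+EST, 93.6 to 103 in SREBP2 and 100.4 to 102.5 in SREBP2+EST, and rose 1.79-fold with EST (log2 0.84 ± 0.04, edgeR adjusted p = 4.3e-11) and 1.56-fold with SREBP2 alone (log2 0.64 ± 0.04, edgeR adjusted p = 1.18e-09). With EST present, SREBP2 cells had less of it (log2 -0.14 ± 0.04, edgeR adjusted p = 0.02). Txnip, a glucose-responsive target of MondoA, fell by 0.37 ± 0.06 on the log2 scale with EST (edgeR adjusted p = 4.7e-05) and by 0.21 ± 0.06 with SREBP2 alone (edgeR adjusted p = 0.00515). Mlxipl, which encodes ChREBP, had at most 4.21 estimated counts in a library and Arrdc4 at most 1, both too few to test. Mycl and Mycs, the other MYC genes listed, had no row.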

How the data were processed

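RNA was measured in 12 G1E-ER4 libraries, 3 per group, named by group and by column header number (titles number replicates differently). The authors deposited estimated counts per gene, not normalized, of which 66.5% are whole. The submitters' processing notes name HISAT2 2.0.4, Bowtie2 2.2.5, RSEM 1.2.12, DESeq2 1.4.5 and GRCm38.p6, with no role or order. A second table of the authors' own pairwise fold changes and p-values, with no value per library, was not used. Estimated counts let reads shared by similar genes be split, and values were fractional for Mxd3 and Mga in all 12 libraries.

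Counts were rounded, filtered with filterByExpr (6033 of 17210 genes left out), scaled by TMM and tested with the edgeR 4.0.16 quasi-likelihood F-test (R 4.3.3, limma 3.58.1), with 1 mean per group over all 12 libraries. P-values were adjusted by Benjamini-Hochberg over 11177 genes, with a threshold of 0.05. The procedure was tested on simulated data. Levels are CPM after TMM. A floor of 3 counts came to 0.153 to 0.163 CPM. Alternatives were DESeq2 1.42.0, RLE scaling, library totals, a minimum of 10 counts in every library or no filter, fits to the compared groups alone, leaving out each library or both libraries 1, and header numbers as a block. Members and gene lists were chosen with earlier results of these data known. Named genes were all members, the 3 nearest patterns for Myc and the 3 other members that changed most with EST (mean log2 CPM of at least 3, prior count 2), the largest rise and fall of each list with EST in Vector cells and with SREBP2 alone, and every gene of lists of 4 or fewer. Cdkn1a was named in addition.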

Additional observations from a re-analysis of the deposited data

Results flagged for a closer look

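The EST effect differed between SREBP2 and Vector cells, by the interaction term of the edgeR fit, for 7 of the 9 members, 4 above 0 and 3 below, beside 29.8% and 29.2% of all genes. The count fell to 4 without Vector library 4, Vector+EST library 1, Vector+EST library 5 or SREBP2+EST library 1, where Mxd4, Mxi1 and Mga lost the call. Without both libraries 1 it was 5, beside 57.1% of 11292 genes, as Mxd4 and Mxi1 lost the call (log2 -0.21 and -0.11). On the log2 scale the EST effect in SREBP2 cells minus that in Vector cells was 1.53 for Myc, 1.58 for Mnt, 0.68 for Mxd3 and 0.22 for Mga. It was -2.20 for Mxd1, -0.53 for Mxd4 and -0.28 for Mxi1. For each of the 7 the EST effect in SREBP2 cells was nearer 0 or, for Mxd3, of the other sign. The 3 Vector libraries, which enter this difference, stand apart from the other 9.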

How the results depend on the processing

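Over the 9 members, 7 comparisons and 20 alternatives (19 for the interaction), 1170 of 1251 log2 fold changes kept their direction and their side of the threshold, 33 lost the call, 22 gained it and 26 turned direction, all of them differences that were not called with all libraries. The calls for Myc, Mnt and Mxd1 in both effects on Vector cells held under every alternative run. Without both libraries 1, members past the threshold came to 5 for the SREBP2 effect with EST, 3 for the EST effect in SREBP2 cells and 5 for SREBP2 alone against EST alone (30.7%, 13.9% and 34.4% of all genes), and Myc turned to -0.15 for the SREBP2 effect with EST (edgeR adjusted p = 0.0116). Header numbers were tried as a replicate block although same-numbered libraries did not deviate together (correlations of -0.174 to 0.0674 between groups): 1 member, Mnt, then passed for the SREBP2 effect with EST (1208 genes against 2448), Mlx and Mxd1 losing the call, with Max at 0.0398, and the EST effect in SREBP2 cells was 0.0121 for Myc and -0.042 for Mxi1. In that fit Vector library 4 and SREBP2+EST library 2, each alone with its number, no longer inform the group differences. Max lost its call there for SREBP2+EST against Vector. For the EST effect in SREBP2 cells, Mxi1 was -0.0034 with DESeq2 and with RLE scaling, and edgeR called 22 genes with no filter, 8 with the compared groups alone and 18 without Vector+EST library 5, DESeq2 12. Max was 4e-04 for the SREBP2 effect with EST with the compared groups alone. With 1 library left out, members past the threshold in the interaction ran from 4 to 7. Values that crossed 0 ran from -0.0357 to 0.0945 for Mlx (EST effect in Vector cells), from -0.14 to 0.18 for Myc, -0.0422 to 0.0267 for Max and -2e-04 to 0.19 for Mxd4 (SREBP2 effect with EST), from -0.0829 to 0.11 for Mxi1 and -0.0565 to 0.0133 for Mlx (EST effect in SREBP2 cells), from -0.21 to 0.0871 for Mxd4 and -0.11 to 0.0375 for Mga (SREBP2 alone against EST alone) and from -0.12 to 0.012 for Mlx (interaction). The causes were not tested. Mxd3 rests on 78.2 to 163 counts a library, and Myc, though abundant, moved between -0.53 and 0.01 for the EST effect in SREBP2 cells.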
